A study of Mus musculus with 16 samples.

Results

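The 9 genes Col1a1, Col1a2, Col3a1, Ogn, Dcn, Lum, Fmod, Igf2 and Slc6a13 mark the fibroblasts of the meninges, the membranes that cover the brain. They were taken by symbol from a deposited table of 55359 mouse genes, in which each symbol occurred 1 time, and all 9 were among the 17737 genes with enough counts to be tested. RNA was sequenced from cortex of mice that had received an adeno-associated virus (AAV), a vector that carries a transgene into cells, and the study asked how polyglycine proteins alter the transcriptome. The 16 libraries formed 4 groups of 4, named by construct: ATG-GGC11 (code 3A6), ATG-GGC100 (3A7), TAG-GGC100 (3A8) and ATG-GGN100dCT (3A9). GGC and GGN encode glycine, ATG starts translation and TAG stops it; the labels do not define the number after the codon or dCT. All groups, controls included, had received a virus, so no uninjected cortex was compared. The labels used here give no promoter, viral dose, interval, strain, age or sex, and do not state that each library is another animal. The p-values therefore reflect only how these libraries vary, which may be technical. The labels call no construct a control, though the deposited table names 1 of its 4 construct rows Control and the others by the codes 3A7, 3A8 and 3A9; ATG-GGC11 and TAG-GGC100 serve as the reference groups below.

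Fibroblasts of the dura, arachnoid and pia lie on the surface of the brain, and related cells follow larger vessels into the cortex. They lay down collagen fibres and the proteoglycans that space them, and in scars of the central nervous system fibroblasts deposit the same matrix. Col1a1 and Col1a2 encode the chains of type I collagen, the main collagen of tough connective tissue, and Col3a1 encodes type III collagen, which forms finer fibres with it. Dcn, Lum, Fmod and Ogn encode decorin, lumican, fibromodulin and osteoglycin, small leucine-rich proteoglycans of the matrix. The first 3 bind collagen and regulate the width of its fibrils. Igf2 encodes insulin-like growth factor 2, an imprinted growth factor that in adult brain is made mainly by meninges and choroid plexus. Slc6a13 encodes GAT2, a transporter of GABA and taurine found in the meninges.

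Library totals were 12838756 to 19131210 counts. Excitatory neuron marker Slc17a7 (the glutamate transporter VGLUT1) averaged 197 to 270 FPKM (fragments scaled to exon length and library depth) in the 4 groups, so the labelled cortex was present in all. With the Control row taken as that of ATG-GGC11, the remaining code, each construct's own row averaged 51.6 ± 14 CPM (counts scaled to the library total) in ATG-GGC11 libraries, 1.75 ± 0.564 in ATG-GGC100, 12.6 ± 1.95 in TAG-GGC100 and 22.4 ± 11 in ATG-GGN100dCT (SD, n = 4). Each row was highest in its matching group. Within the ATG-GGC100 libraries the ATG-GGC11 row was as high as their own, at 1.78 ± 0.643 CPM. The ATG-GGN100dCT libraries stood apart in liver transcripts: the albumin gene Alb had 321 to 398 counts in each of them and 0 to 3 in the other 12 libraries, and 12 of 15 tested hepatocyte genes were higher there in each comparison. Their part in the results on ATG-GGN100dCT was not tested. Fold changes are fitted log2 differences between groups, and a gene was called at a Benjamini-Hochberg adjusted p under 0.05 over all 17737 genes in edgeR's quasi-likelihood test. Scaling by library totals in place of TMM, edgeR's trimmed mean, raised the higher share of all calls from 62.8% to 74.8% for ATG-GGC100 against ATG-GGC11, from 54.5% to 70.1% against TAG-GGC100, from 47.6% to 67.1% for ATG-GGN100dCT against ATG-GGC11 and from 49.4% to 65.7% against TAG-GGC100, yet left the number of called genes among the 9 as it was.

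The 250 bases before the start of 3 of the genes are shown, since Col1a2 and Col3a1 are collagen genes called higher in ATG-GGC100 and Ogn is a proteoglycan gene called both there and in ATG-GGN100dCT. The sequences are from RefSeq on GRCm38.p6, where 6 of the 9 genes had an entry, in 11 windows. Capitals mark 3 motifs sought on both strands: the TATA box TATAAA, the CCAAT box CCAAT and the GC box GGGCGG. Runs in capitals longer than a motif are overlapping matches.
Col1a2, chr6:4505368-4505617, plus strand: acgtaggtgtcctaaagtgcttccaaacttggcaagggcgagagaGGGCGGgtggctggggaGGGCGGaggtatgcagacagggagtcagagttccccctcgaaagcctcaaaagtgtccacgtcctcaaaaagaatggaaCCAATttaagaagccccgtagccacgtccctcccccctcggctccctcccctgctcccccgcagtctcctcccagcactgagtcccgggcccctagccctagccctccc
Col3a1, chr1:45311288-45311537, plus strand: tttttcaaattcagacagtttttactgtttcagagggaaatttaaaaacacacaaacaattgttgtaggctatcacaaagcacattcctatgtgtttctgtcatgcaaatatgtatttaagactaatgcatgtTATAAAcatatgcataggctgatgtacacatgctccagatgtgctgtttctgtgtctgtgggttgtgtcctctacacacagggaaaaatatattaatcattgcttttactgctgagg
Ogn, chr13:49607765-49608014, plus strand: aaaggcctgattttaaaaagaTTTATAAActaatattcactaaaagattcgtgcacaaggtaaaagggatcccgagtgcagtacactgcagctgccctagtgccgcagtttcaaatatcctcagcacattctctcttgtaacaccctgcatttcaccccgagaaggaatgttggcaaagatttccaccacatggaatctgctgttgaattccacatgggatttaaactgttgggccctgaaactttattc
Col1a2 held 1 CCAAT box, 109 bases before the start, and 2 GC boxes, 205 and 188 bases before it. Col3a1 held a TATA box 117 bases before the start. Ogn held TATA boxes on both strands, at 229 and 227 bases. Among the 32851 windows of all genes, 12.4% held a TATA box, 33.8% a CCAAT box and 32.7% a GC box; among the 11 windows of the members the numbers were 2, 3 and 4. The AP-1 motif TGANTCA, sought on both strands, was in 0 of the 11 and in 6.75% of all windows. These matches describe letters only.

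The collagen genes were highest in ATG-GGC100 cortex, at about the same level in both reference groups, and between them in ATG-GGN100dCT. Col1a2 (ENSMUSG00000029661), on the plus strand of chromosome 6 at 4504814 to 4541544 in the table's coordinates, whose build the table does not name, had 0.66, 1.10, 1.37 and 0.69 FPKM in ATG-GGC11 libraries 1 to 4 and 0.97, 0.91, 0.99 and 1.09 in TAG-GGC100. It had 1.66, 2.14, 1.53 and 2.01 FPKM in ATG-GGC100 and 1.14, 0.93, 1.14 and 1.79 in ATG-GGN100dCT. Every ATG-GGC100 library lay above every library of both reference groups, and only ATG-GGN100dCT library 4 reached into the ATG-GGC100 range. The Col1a2 level was 1.85-fold that of ATG-GGC11 (log2 difference 0.88 ± 0.21 SE, edgeR adjusted p = 0.0313) and 1.81-fold that of TAG-GGC100 (0.85 ± 0.21, adjusted p = 0.0256).

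Col1a1 (ENSMUSG00000001506, chromosome 11, 94827050 to 94843868) had 0.92, 1.00, 1.72 and 0.57 FPKM in ATG-GGC11 libraries 1 to 4 and 1.14, 0.83, 0.69 and 1.07 in TAG-GGC100. It had 2.13, 2.89, 1.61 and 1.88 FPKM in ATG-GGC100 and 1.67, 1.00, 1.52 and 2.22 in ATG-GGN100dCT. The ATG-GGC100 libraries did not overlap TAG-GGC100, but ATG-GGC11 library 3 lay above the lowest of them. Col1a1 was 2.22-fold higher than in TAG-GGC100 (log2 1.15 ± 0.30, edgeR adjusted p = 0.0295), and its difference from ATG-GGC11 did not pass (0.96 ± 0.29, adjusted p = 0.0903).

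Col3a1 (ENSMUSG00000026043, chromosome 1, 45350698 to 45388866), the least abundant collagen of the 3, had 0.12, 0.24, 0.36 and 0.13 FPKM in ATG-GGC11 and 0.21, 0.13, 0.24 and 0.20 in TAG-GGC100. It had 0.61, 0.56, 0.34 and 0.68 FPKM in ATG-GGC100 and 0.35, 0.13, 0.50 and 0.70 in ATG-GGN100dCT. The ATG-GGC100 libraries lay above all of TAG-GGC100, while the ATG-GGN100dCT libraries spanned the ranges of both. Col3a1 was 2.74-fold higher in ATG-GGC100 than in TAG-GGC100 (log2 1.45 ± 0.42, edgeR adjusted p = 0.0453) and did not pass against ATG-GGC11 (1.27 ± 0.41, adjusted p = 0.108). The summed FPKM of the 3 collagens averaged 4.51 ± 0.865 in ATG-GGC100, 2.22 ± 0.910 in ATG-GGC11, 2.12 ± 0.258 in TAG-GGC100 and 3.27 ± 1.09 in ATG-GGN100dCT (SD, n = 4).

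**Figure D1:**
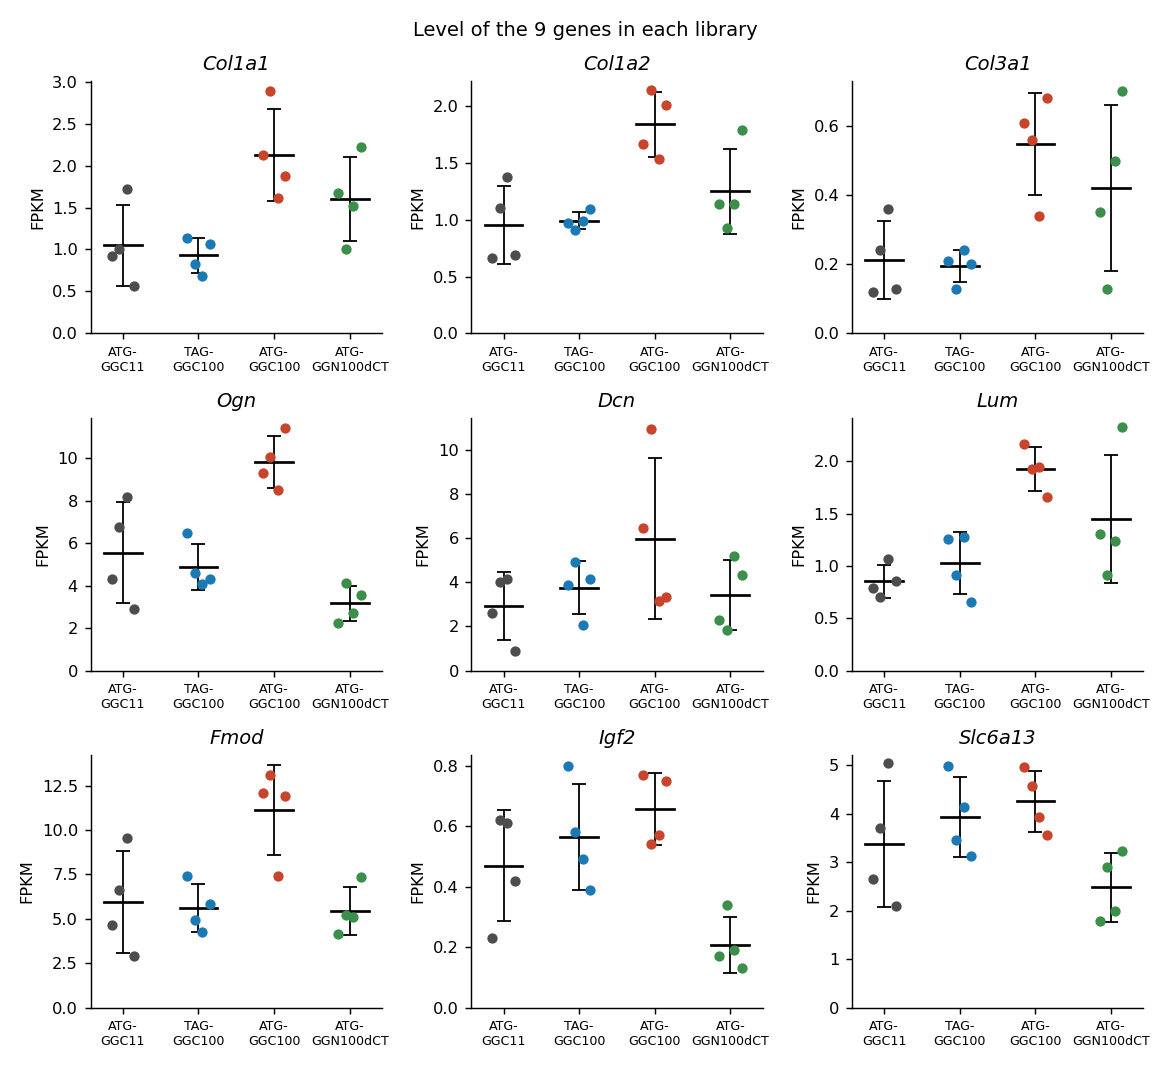
Level in FPKM of each of the 9 genes (vertical axis, from 0) in each library, by construct group (horizontal axis), with points for libraries and bars for the mean and SD (n = 4). The ATG-GGC100 mean is the highest in all 9 panels, and the ATG-GGN100dCT mean is the lowest for Ogn, Fmod, Igf2 and Slc6a13.

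Of the proteoglycans, Lum and Ogn were called in at least 1 comparison and Dcn and Fmod in none. Lum (ENSMUSG00000036446, chromosome 10, 97400990 to 97408565) had 0.79, 0.70, 1.07 and 0.86 FPKM in ATG-GGC11 libraries 1 to 4 and 1.26, 0.91, 1.28 and 0.66 in TAG-GGC100. It had 2.17, 1.93, 1.95 and 1.66 FPKM in ATG-GGC100 and 1.31, 0.91, 1.24 and 2.33 in ATG-GGN100dCT. Every ATG-GGC100 library exceeded every reference library, and ATG-GGN100dCT library 4 exceeded them all. Lum was 2.19-fold higher in ATG-GGC100 than in ATG-GGC11 (log2 1.13 ± 0.25, edgeR adjusted p = 0.0135) and 1.83-fold higher than in TAG-GGC100 (0.87 ± 0.25, adjusted p = 0.0352).

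Ogn (ENSMUSG00000021390, chromosome 13, 49761522 to 49777977) had 4.33, 6.78, 8.2 and 2.91 FPKM in ATG-GGC11 and 6.5, 4.62, 4.08 and 4.32 in TAG-GGC100. It had 9.32, 10.05, 8.52 and 11.44 FPKM in ATG-GGC100 and 2.25, 4.14, 2.72 and 3.55 in ATG-GGN100dCT. All ATG-GGC100 libraries lay above all 12 others, and only ATG-GGN100dCT library 2 reached into the TAG-GGC100 range. Ogn was 1.96-fold higher in ATG-GGC100 than in TAG-GGC100 (log2 0.97 ± 0.26, edgeR adjusted p = 0.0367) and 3.11-fold higher than in ATG-GGN100dCT (the reverse difference was -1.64 ± 0.27, adjusted p = 0.00504). Against ATG-GGC11, where the 4 libraries ranged from 2.91 to 8.2, it did not pass (0.76 ± 0.26, adjusted p = 0.133). Ogn lies within the opposite-strand gene Cenpp and the kit does not mark strand, but Cenpp had 153 counts over the 16 libraries and Ogn 3953.

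Fmod (ENSMUSG00000041559, chromosome 1, 133964992 to 133976015) ranged from 7.41 to 13.1 FPKM in ATG-GGC100, 2.92 to 9.57 in ATG-GGC11, 4.24 to 7.41 in TAG-GGC100 and 4.13 to 7.35 in ATG-GGN100dCT. The ATG-GGC100 range met the TAG-GGC100 range at its lowest library and overlapped that of ATG-GGC11. Its adjusted p in edgeR was 0.0805 for the higher level against TAG-GGC100 (log2 0.95 ± 0.31) and 0.172 against ATG-GGC11 (0.85 ± 0.31). Dcn (ENSMUSG00000019929, chromosome 10, 97315471 to 97354005) varied most of the 9 among libraries, 12.3-fold from the lowest to the highest. Its values were 3.15 to 10.9 FPKM in ATG-GGC100, 0.89 to 4.16 in ATG-GGC11, 2.08 to 4.90 in TAG-GGC100 and 1.86 to 5.18 in ATG-GGN100dCT. Dcn passed in no comparison, with edgeR adjusted p from 0.384 to 0.978.

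Igf2 was low in ATG-GGN100dCT. Igf2 (ENSMUSG00000048583), on the minus strand of chromosome 7 at 142204503 to 142220553, had 0.23, 0.62, 0.61 and 0.42 FPKM in ATG-GGC11 libraries 1 to 4 and 0.80, 0.58, 0.49 and 0.39 in TAG-GGC100. It had 0.77, 0.54, 0.57 and 0.75 FPKM in ATG-GGC100 and 0.17, 0.34, 0.19 and 0.13 in ATG-GGN100dCT. All ATG-GGN100dCT libraries lay below all ATG-GGC100 and TAG-GGC100 libraries, and 1 ATG-GGC11 library, replicate 1, lay within their range. The log2 difference was -1.22 ± 0.33 against ATG-GGC11 (2.33-fold lower, edgeR adjusted p = 0.0331). It was -1.47 ± 0.33 against TAG-GGC100 (2.76-fold lower, adjusted p = 0.0112) and -1.65 ± 0.33 against ATG-GGC100 (3.13-fold lower, adjusted p = 0.00829). Those comparisons share the ATG-GGN100dCT libraries. In ATG-GGC100 Igf2 did not pass against either reference (log2 0.43 ± 0.29 and 0.18 ± 0.29, edgeR adjusted p = 0.501 and 0.76). Its antisense gene Igf2os had 65 counts and Igf2 711, and without strand their reads cannot be told apart.

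Slc6a13 (ENSMUSG00000030108, chromosome 6, 121277186 to 121314692) was the steadiest member, 2.83-fold from its lowest to its highest library. Its ranges were 2.09 to 5.04 FPKM in ATG-GGC11, 3.56 to 4.96 in ATG-GGC100, 3.13 to 4.99 in TAG-GGC100 and 1.78 to 3.24 in ATG-GGN100dCT. The ATG-GGN100dCT libraries did not overlap ATG-GGC100, yet no comparison passed. The lowest adjusted p in edgeR was 0.0828, for the log2 difference of -0.71 ± 0.25 between ATG-GGN100dCT and TAG-GGC100.

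ATG-GGC100 had the highest mean of the 4 groups for all 9 genes, and no neighbours in any gene's order of group means passed the test except ATG-GGC11 and ATG-GGN100dCT for Igf2. Against ATG-GGC11 the 9 had a median log2 difference of 0.88, beside -0.001 over all tested genes, and all 9 were positive. The test called 2 members higher and none lower, 22.2% of the 9, where it called 3.5% of all genes (2.2% higher and 1.3% lower). In 3 members the libraries of the groups did not overlap, against 11.3% of all genes. Against TAG-GGC100 the median was 0.87, beside 0.003, and again all 9 were positive. Here 5 members, the 3 collagens, Lum and Ogn, were called higher, 55.6% of the 9, where the test called 7.44% of all genes (4.05% higher and 3.39% lower), and 5 did not overlap, beside 13.5% of all genes. These comparisons share the 4 ATG-GGC100 libraries and do not count as 2 independent results. In bulk tissue, more or fewer cells of a type cannot be told apart from more or less RNA per cell.

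Several of these calls hung on single libraries. Leaving out ATG-GGC11 library 2 left no member called against ATG-GGC11 (Lum adjusted p = 0.0581), leaving out ATG-GGC11 library 1 or 4 or ATG-GGC100 library 2 or 4 left 1, and leaving out ATG-GGC11 library 3, the top of its group in 8 of 9 genes, gave 5. Against TAG-GGC100 none was called without ATG-GGC100 library 2 or TAG-GGC100 library 2, and 1 to 3 without each other library of the 2 groups. The Col3a1 call there was also lost without ATG-GGC11 library 2 or ATG-GGN100dCT library 1. The direction of these called differences held without every library in turn.

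**Figure D2:**
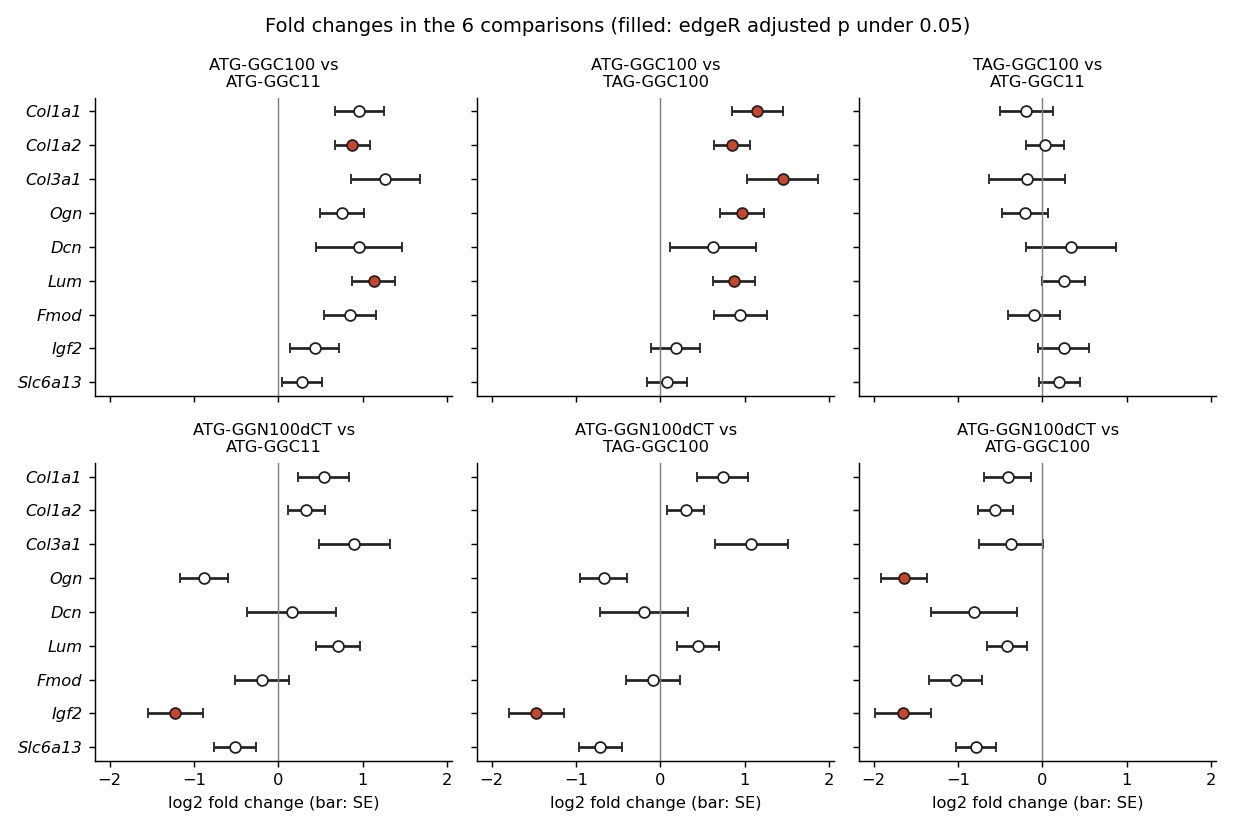
Log2 fold change of the 9 genes in the 6 comparisons, with the standard error as bars; filled points had an edgeR adjusted p under 0.05. The 5 filled points of ATG-GGC100 against TAG-GGC100 are Col1a1, Col1a2, Col3a1, Ogn and Lum, and in the comparisons of ATG-GGN100dCT the filled points are Igf2 (all 3) and Ogn (against ATG-GGC100).

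No member passed between the reference groups. TAG-GGC100 against ATG-GGC11 gave a median log2 difference of 0.03 over the 9 and log2 differences between -0.21 and 0.34, 5 positive and 4 negative. The edgeR test called 0 members, and DESeq2 called 0, in a comparison that called 0.00564% of all genes (1 gene), and 0 members had an unadjusted p under 0.05. The libraries of all 9 members overlapped, while those of 4.1% of all genes did not.

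In ATG-GGN100dCT the values of the genes went in both directions. Against ATG-GGC11 the median was 0.16, 5 members positive and 4 negative, and 1 was called, Igf2, lower, in a comparison that called 6.66% of all genes (3.17% higher and 3.49% lower). The libraries of every member overlapped, while those of 14.2% of all genes did not. The collagens and Lum had higher values (log2 0.54 ± 0.30 for Col1a1, 0.33 ± 0.22 for Col1a2, 0.90 ± 0.42 for Col3a1 and 0.71 ± 0.26 for Lum). Ogn had a lower value (-0.88 ± 0.28). In this order the edgeR adjusted p were 0.277, 0.382, 0.202, 0.0969 and 0.071. Against TAG-GGC100 the median was -0.09 and 1 member was called, Igf2, where 8.69% of all genes were called (4.3% higher and 4.4% lower), and only Igf2 did not overlap, beside 12.9%. Against ATG-GGC100 all 9 were negative, with a median of -0.79, and 2 were called, Ogn and Igf2, where 2.05% of all genes were called (0.857% higher and 1.19% lower). The libraries of 4 members, Ogn, Fmod, Igf2 and Slc6a13, did not overlap there, beside 7.94% of all genes. These 3 comparisons share the ATG-GGN100dCT libraries.

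Library 2 of ATG-GGN100dCT was the lowest of its group in 5 of the 9 genes and the highest in 2, Ogn and Igf2. Its own construct row had 8.65 CPM, against 20.5, 25.3 and 35.0 in libraries 1, 3 and 4. The part of the construct level in these values was not tested. Without it the test called 4 members against ATG-GGC11, Lum (0.88, edgeR adjusted p = 0.0307) and Col3a1 (1.19, 0.0292) higher and Ogn (-1.03, 0.045) and Igf2 (-1.56, 0.00693) lower. Without other libraries the Igf2 call against ATG-GGC11 was lost: it had adjusted p of 0.1, 0.0937 and 0.0508 without ATG-GGC11 library 2, 3 or 4 and 0.0745, 0.0842 and 0.104 without ATG-GGN100dCT library 1, 3 or 4. Against TAG-GGC100, Col3a1 was also called without library 2 (1.37, adjusted p = 0.0143), and Slc6a13 without ATG-GGC11 library 3. The Igf2 calls against TAG-GGC100 and ATG-GGC100 and the Ogn call against ATG-GGC100 kept an adjusted p of at most 0.0467 in each of 22 alternatives.

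The ratio of collagens to Ogn within a library set most ATG-GGN100dCT libraries apart. This ratio was chosen after the levels had been seen, so it is a description with no test. Col1a1 over Ogn was 0.147 to 0.212 in ATG-GGC11, 0.164 to 0.288 in ATG-GGC100 and 0.169 to 0.248 in TAG-GGC100. It was 0.742, 0.242, 0.559 and 0.625 in ATG-GGN100dCT libraries 1 to 4, so that library 2 lay within the other groups' range and the other 3 lay above it. Col1a2 over Ogn ran from 0.149 to 0.252 in the first 3 groups and had 0.507, 0.225, 0.419 and 0.504 in ATG-GGN100dCT. Lum over Igf2 ran from 1.13 to 3.57 in the first 3 and from 2.68 to 17.9 in ATG-GGN100dCT. Dcn over Ogn set only libraries 3 and 4 of ATG-GGN100dCT apart, at 1.9044 and 1.2197. The highest value in the other groups was 1.09, in ATG-GGC100. Libraries 1 and 2 of ATG-GGN100dCT, at 1.02 and 0.4493, lay within the range of the other groups.

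**Figure D3:**
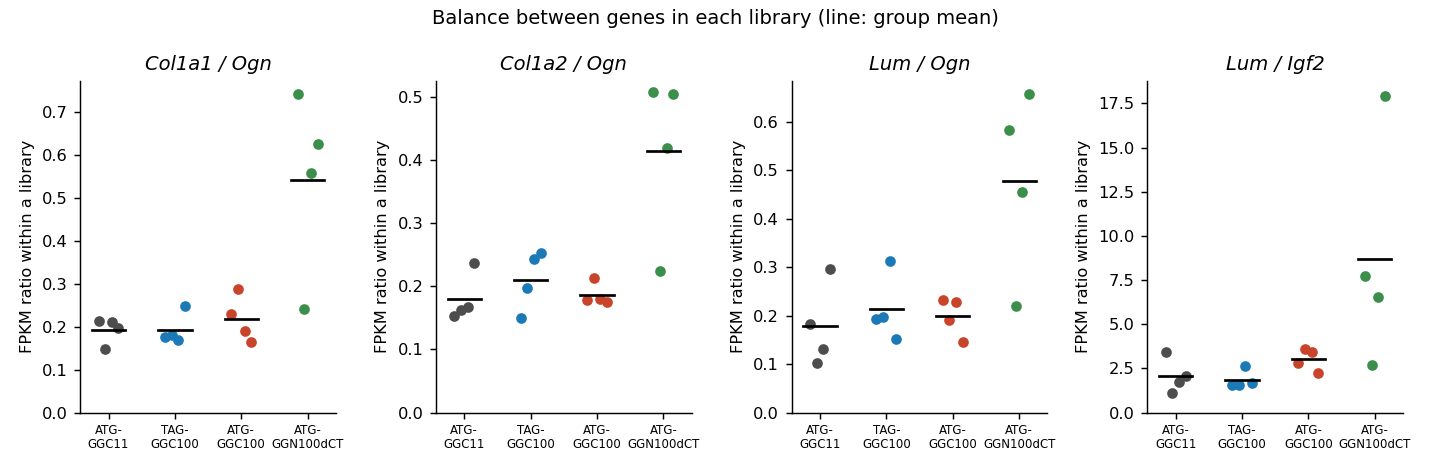
Ratio of FPKM values within each library (vertical axis) for 4 pairs of the genes, by construct group, with points for libraries and a line for the group mean. Libraries 1, 3 and 4 of ATG-GGN100dCT lie above the other groups in all 4 panels, and library 2 lies near them.

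Within groups, several of the genes varied together from library to library. After the group means were removed from log2 CPM, 32 of the 36 pairs correlated positively over the 16 libraries (median Pearson r 0.51, range -0.14 to 0.87). In a permutation test within groups with 100000 resamples, adjusted over the 36 pairs, 10 pairs passed for Pearson's r, and 3 for Spearman's rho as well. These 3 were Ogn with Fmod (r = 0.87, rho = 0.86, adjusted permutation p = 0.019 and 0.033), Col1a2 with Col3a1 (r = 0.84, rho = 0.81) and Col1a1 with Fmod (r = 0.83, rho = 0.78). Without the 2 libraries farthest from the median, r was 0.72, 0.76 and 0.66. Fmod took part in 5 of the 10 pairs and Col1a1 in 4, whereas Lum and Igf2 took part in none, with median r of 0.32 and 0.02 with the other 8. A library's values share its depth and dissection, which the correlation does not separate. A list of 10 striatal neuron genes summed to 532 to 1916 CPM over the libraries. The library highest in this list had the lowest sum of the 9 genes in ATG-GGC11 (library 4), ATG-GGC100 (library 3) and TAG-GGC100 (library 3). In ATG-GGN100dCT, libraries 1 and 2 were highest in it (1618 and 1622 CPM) and lowest in the 9 (70.7 and 70.9 CPM). Its part in the results was not tested. Library 3 of ATG-GGC11 was the highest of its group in 8 of the 9 genes and library 4 the lowest in 5, library 4 of ATG-GGN100dCT was the highest in 6, and library 3 of ATG-GGC100 was the lowest in 6.

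**Figure D4:**
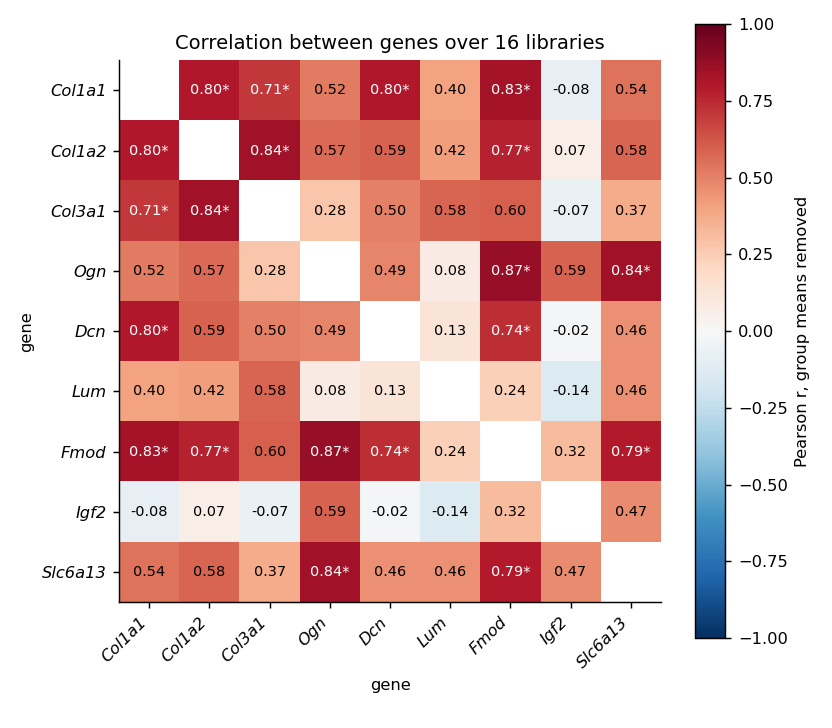
Pearson r between the 9 genes over 16 libraries after the group means were removed from log2 CPM; an asterisk marks a pair with an adjusted permutation p under 0.05. The collagens, Fmod, Dcn, Ogn and Slc6a13 hold all 10 marked pairs, and Lum and Igf2 hold none.

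A few other fibroblast genes were called higher in ATG-GGC100. Of 57 further genes of meningeal and perivascular fibroblasts in the table, 55 were tested and only Dpep1 was at 0 in all 16 libraries. Some also served as markers of other cells, Pdgfra of oligodendrocyte precursors and Vtn of mural cells, so their sum is not a level of fibroblasts alone. The 9 members summed to 117 to 205 CPM in ATG-GGC100, 46.6 to 130 in ATG-GGC11, 73.8 to 108 in TAG-GGC100 and 70.7 to 118 in ATG-GGN100dCT. The 57 summed to 2040 to 2550 CPM in ATG-GGC100, 1480 to 2030 in ATG-GGC11, 1730 to 1850 in TAG-GGC100 and 1660 to 2190 in ATG-GGN100dCT. Against ATG-GGC11, 5 were called higher and none lower (median log2 0.37), where 2.2% and 1.3% of all genes were, among them Foxc2, a transcription factor of meningeal development (1.27 ± 0.28, edgeR adjusted p = 0.0138), S100a6, a calcium-binding protein (0.84 ± 0.16, adjusted p = 0.00374), Islr and Zic2. Against TAG-GGC100, 6 were higher and 1 lower (median 0.32), where 4.05% and 3.39% of all genes were. The largest difference was in Svep1, a matrix protein (1.55 ± 0.46, edgeR adjusted p = 0.0425). Svep1 was low, at 0.1525 ± 0.055 FPKM in ATG-GGC100 and 0.05 ± 0.0183 in TAG-GGC100. S100a6 (1.16 ± 0.16, adjusted p = 0.000211) and Aebp1, a protein that promotes collagen assembly (1.11 ± 0.25), followed. ATG-GGN100dCT against ATG-GGC100 had 1 higher, Igfbp4, and 2 lower, Slc13a3 and Gsn (median -0.28).

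Among 38 tested genes of collagen processing and other matrix, Lox, whose product cross-links collagen, moved most in ATG-GGC100. It averaged 0.508 ± 0.0675 FPKM in ATG-GGC100, 0.138 ± 0.0846 in ATG-GGC11, 0.142 ± 0.0377 in TAG-GGC100 and 0.180 ± 0.0668 in ATG-GGN100dCT (SD, n = 4). Against ATG-GGC11 only Lox (log2 1.77 ± 0.35, edgeR adjusted p = 0.00435) and Col5a2, a chain of type V collagen (1.01 ± 0.23, adjusted p = 0.0157), were called, both higher. Over all genes 2.2% were called higher and 1.3% lower in that comparison. Against TAG-GGC100 the test called 4 higher, Lox, Col5a2, Bgn and Col6a2, and 3 lower, where 4.05% and 3.39% of all genes were. The 3 lower were P4ha1 (-0.68 ± 0.19) and P4ha2 (-0.76 ± 0.15), chains of the prolyl hydroxylase that modifies new collagen, and Serpinh1 (-0.62 ± 0.17), the collagen chaperone HSP47. None of these 3 was called in ATG-GGC100 or ATG-GGN100dCT against ATG-GGC11. In ATG-GGN100dCT against TAG-GGC100, 5 genes of the list were higher and 3 lower, where 4.3% and 4.4% of all genes were. The largest changes there were in Col5a3 (1.78 ± 0.31), Col14a1 (-1.13 ± 0.34), Col6a1 (0.85 ± 0.24) and Col5a2 (0.83 ± 0.23). P4ha1 (-0.75 ± 0.19) and Serpinh1 (-0.75 ± 0.18) were among the lower there too. In ATG-GGN100dCT against ATG-GGC11 the type V chain Col5a3 (1.76 ± 0.31, adjusted p = 0.00414), Fbln2 and the basement membrane chains Col4a1 and Col4a2 were higher. Col14a1 was lower (-1.56 ± 0.33, adjusted p = 0.00924), at a low level of 0.085 and 0.2475 FPKM. Over all genes 3.17% were called higher and 3.49% lower there. Lox was the only gene of the list called between ATG-GGN100dCT and ATG-GGC100 (-1.49 ± 0.34), where 2.05% of all genes were called.

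Of 20 genes of the fibrosis and TGF-beta response, 3 were called higher in ATG-GGC100 against ATG-GGC11 and none lower (median 0.43). The 3 were Thbs2 (log2 0.66), Tgfbr2 (0.46) and Tgfbr1 (0.45). Of all genes, 2.2% were called higher and 1.3% lower. Against TAG-GGC100, 5 were higher and none lower, where 4.05% and 3.39% of all genes were. The 5 were led by Thbs1, a thrombospondin that activates latent TGF-beta (1.51 ± 0.32, edgeR adjusted p = 0.00835). The matrix protease Mmp2 (0.96 ± 0.23) and Thbs2 (0.89 ± 0.18) followed. Thbs1 was also lower in ATG-GGN100dCT than in ATG-GGC100 (-1.84 ± 0.33, adjusted p = 0.00504). Of 14 tested genes of IGF signalling, the binding proteins Igfbp4 (0.59 ± 0.16) and Igfbp7 (0.51 ± 0.11) were higher and the receptor substrate Irs2 (-0.61 ± 0.11) lower in ATG-GGN100dCT than in ATG-GGC11. That comparison called 3.17% of all genes higher and 3.49% lower. Irs2 also fell in ATG-GGC100 (-0.53 ± 0.11, adjusted p = 0.0103).

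Markers of other cells moved with the fibroblast genes in part. The 12 genes of border macrophages, which live in the meninges and around vessels, summed to 41.0 to 44.2 CPM in ATG-GGC100, 21.4 to 35.1 in ATG-GGC11, 26.7 to 35.7 in TAG-GGC100 and 24.4 to 33.3 in ATG-GGN100dCT, so ATG-GGC100 lay above all other libraries. Of 10 tested, Mrc1 (log2 1.36 ± 0.18, edgeR adjusted p = 0.000153), F13a1 and Clec10a were called higher against ATG-GGC11. Against TAG-GGC100, Cd163 (0.80 ± 0.23) and Mrc1 (0.76 ± 0.18) were higher, and F13a1 and Clec10a did not pass. Pf4, Cd209f and Mrc1 were lower in ATG-GGN100dCT than in ATG-GGC100. F13a1, Clec10a and Cd209f were low, at 0.675, 0.38 and 0.398 FPKM in ATG-GGC100. Over all genes, 2.2% were called higher against ATG-GGC11 and 4.05% against TAG-GGC100. Microglial genes rose too, 10 of 12 against ATG-GGC11 and 11 of 12 against TAG-GGC100. Of 9 astrocyte genes, 3 were called higher against ATG-GGC11, the filament gene Gfap (2.13 ± 0.27, edgeR adjusted p = 0.00112), the protease inhibitor Serpina3n (2.58 ± 0.28) and Vim (1.24 ± 0.14). Against TAG-GGC100 the same 3 genes (2.23, 2.56 and 1.11) and Aqp4 (0.44) were higher. All 9 astrocyte genes summed to 4710 to 5460 CPM in ATG-GGC100, 4240 to 4920 in ATG-GGC11, 3810 to 4420 in TAG-GGC100 and 3940 to 4740 in ATG-GGN100dCT. Vim is also made by fibroblasts. Mural cell genes, at 179 to 199 CPM in ATG-GGC100 and 151 to 177 in ATG-GGC11, had 0 of 13 called in either comparison. Genes of melanocytes, bone and cartilage, and skeletal muscle, tissues that adhere to or lie near the meninges, summed to 9.08 to 16.4, 29.2 to 40.1 and 10.5 to 12.7 CPM in ATG-GGC100 and to 9.1 to 10.5, 31.3 to 35.9 and 9.89 to 12.5 in ATG-GGC11. In TAG-GGC100 they summed to 8.03 to 14.0, 30.4 to 33.9 and 10 to 12.1 CPM. Against TAG-GGC100, 1 of 6 tested bone and cartilage genes was called higher, Sp7, a transcription factor of bone (1.56 ± 0.42, edgeR adjusted p = 0.0303). The summed level of choroid plexus genes was 13.6 to 17.8 CPM in ATG-GGC100 and 10.2 to 24.3 in the other groups. Of 7 tested, 1 was called higher against TAG-GGC100, the water channel gene Aqp1 (3.26 ± 1.03, edgeR adjusted p = 0.0351), at 0.69 ± 0.741 and 0.065 ± 0.0507 FPKM. The part of these cells, and of how much meninges a dissection took, in the results on the 9 genes was not tested.

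**Figure D5:**
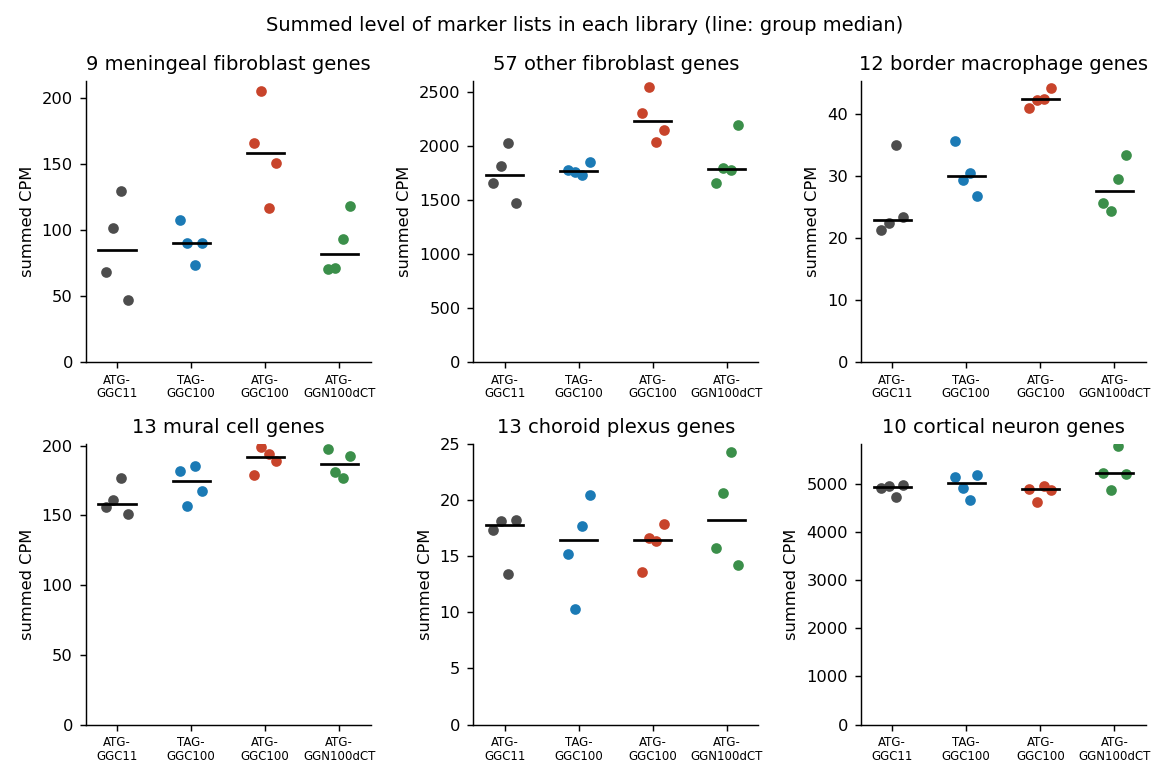
Summed CPM of 6 marker lists (vertical axis, from 0) in each library, by construct group, with points for libraries and a line for the group median. The ATG-GGC100 libraries lie above all others for the border macrophage genes and above both reference groups for the other fibroblast genes. For the 9 meningeal fibroblast genes the ATG-GGC100 libraries overlap ATG-GGC11 and ATG-GGN100dCT. Choroid plexus and neuron genes overlap between groups.

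Among 13490 further genes with a mean of at least 1 FPKM, the 10 whose within-group profile over the 16 libraries was most like the mean of the members were Slc7a11 (r = 0.956), Dab2 (0.925), Colec12 (0.923), Col9a2 (0.899), Fgfbp1 (0.897), Slc13a4 (0.891), Aebp1 (0.889), Cd151 (0.867), Zfp768 (0.859) and Mxra8 (0.852). Slc13a4 and Aebp1 are on the list of other fibroblast genes, 28 of the 13490 had r over 0.8, and the median was -0.02. Slc7a11, the cystine transporter, was called higher in ATG-GGC100 against TAG-GGC100 (log2 0.55, edgeR adjusted p = 0.0213) but not against ATG-GGC11 (0.36, adjusted p = 0.174).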

How the data were processed

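Per the file headers, the authors' deposited table gives raw counts and FPKM for each gene. The authors' FPKM values were recovered from counts, exonic lengths and library totals within 0.005. The labels' protocols describe poly(A) selection of Trizol-extracted RNA, random priming and PCR, with no strand marking. The submitters' processing notes name FastQC 0.10.1, cutadapt 1.9.1 and the builds GRCm39 and mm10; the aligner and counter are not given in the sources used here. Of 52083 shared identifiers, 2.88% had the same start as in a GRCm38 annotation, so table coordinates are not those of GRCm38. Genes were kept by filterByExpr (minimum count 10), and the fit used edgeR 4.0.16 under R 4.3.3 with TMM factors (glmQLFit with the robust option, two-sided glmQLFTest) on all 16 libraries with group as its term. The biological coefficient of variation was 0.112. CPM and log2 CPM were computed from the deposited counts. On simulated counts over 17485 genes for ATG-GGC100 against ATG-GGC11, the test found 68%, 90%, 98% and 100% of genes altered 1.5, 2, 3 and 4-fold, with 10 false among 188 calls. The altered genes were drawn at random from genes above a minimum mean count, so these shares do not carry over to the 9 genes. In the data Col3a1 at 2.41-fold and Dcn at 1.95-fold did not pass in that comparison. DESeq2 1.42.0 was an alternative. The 9 genes and all lists were chosen with earlier results of these data known. Up to 4 called genes of a list are named, largest change first; Col6a2, P4ha1, Serpinh1 and Col4a2 are named beyond that, after their values were seen. Within groups the chi-square over genes, divided by its degrees of freedom, was 4.82 to 22.71, so no library was treated as a duplicate. No sequencing batch was labelled. Some results on the other genes listed are not reported here.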

Additional observations from a re-analysis of the deposited data

How the results depend on the processing

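Over 22 alternatives, 1188 values of the 9 genes kept their direction except 16, none of a called difference, all when a library was left out. Among those, the log2 differences of TAG-GGC100 against ATG-GGC11 spanned -0.41 to 0.03 for Ogn, -0.38 to 0.15 for Col1a1, -0.11 to 0.25 for Col1a2, -0.38 to 0.18 for Col3a1 and -0.31 to 0.22 for Fmod. Against ATG-GGC11, ATG-GGN100dCT spanned -0.14 to 0.36 for Dcn and -0.40 to 0.13 for Fmod, and against TAG-GGC100 -0.48 to 0.02 and -0.25 to 0.07. Slc6a13 in ATG-GGC100 against TAG-GGC100 spanned -0.02 to 0.21. Replicate numbers did not pair the libraries (r -0.20 to 0.19 over 24 pairs, 0 of 16 libraries closest to their own number). With the replicate number as a block, members called fell to 1 for ATG-GGC100 against ATG-GGC11 and 2 against TAG-GGC100, and 2 genes were called between the reference groups. Without a filter on low counts the members called were 1 and 1, and 22 genes were called between the references and 556 between ATG-GGN100dCT and ATG-GGC100. With DESeq2 the members called were 5, 2, 2 and 4 for ATG-GGC100 against ATG-GGC11, and ATG-GGN100dCT against ATG-GGC11, TAG-GGC100 and ATG-GGC100, with 40 genes called between the references and 676 between ATG-GGN100dCT and ATG-GGC100. With only the 8 libraries compared, ATG-GGN100dCT called 0 members and 703 genes against ATG-GGC11, 634 genes against TAG-GGC100 and 181 against ATG-GGC100, and the references 22 genes. Leaving out 1 library at a time, genes called ran 307 to 766 and members 0 to 5 (ATG-GGC100 against ATG-GGC11), 526 to 1655 and 0 to 6 (against TAG-GGC100), 386 to 1834 and 0 to 4 (ATG-GGN100dCT against ATG-GGC11), 515 to 2123 and 1 to 2 (against TAG-GGC100), 165 to 688 and 2 to 2 (against ATG-GGC100), and 1 to 25 and 0 to 0 (the references). Pairs of genes passing the correlation test were 10 with log2(FPKM + 0.1) as well. The cause of these changes was not tested. Igf2, Col3a1 and Lum had the fewest counts, 11, 17 and 25 in their lowest libraries, and so the least depth of the 9.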
